A study of Homo sapiens with 12 samples.

Results

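The genes for albumin (ALB), alpha-fetoprotein (AFP) and afamin (AFM) lie next to each other on human chromosome 4, and the chromatin marks over a 150 kb stretch around them were described in Huh7 cells with and without added VPS72. Members were the regions of 10 ChIP-seq peak lists that overlap chromosome 4 from 74.24 to 74.39 Mb in the hg19 build. There were 159 of them among 1569855 deposited regions, 88 in cells with VPS72 overexpression and 71 in control cells. Gene bounds were used as given to the nearest 1 kb: ALB from 74.270 to 74.287 Mb, AFP from 74.302 to 74.322 Mb and AFM from 74.347 to 74.370 Mb. All 3 genes are read in the same direction, from ALB towards AFM.

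Huh7, a human hepatocellular carcinoma line, carried a triple FLAG tag and a blasticidin resistance gene inserted at the stop codon of VPS72, and was grown from colonies that survived selection. The VPS72 overexpression cells of this tagged line had received lentivirus for VPS72-FLAG, and the control cells of the same line an empty vector, called lenti-HA in the sample titles, both for 24 h. The FLAG antibody could therefore pull down the endogenous tagged protein in both conditions and also the lentiviral protein in the overexpression cells. Each condition had 1 library for the input, for FLAG, for the histone marks H3K27ac and H3K4me1, for the histone variant H2A.Z and for its acetylated form (H2A.Zac), so there were no replicates, no test between conditions could be made, and the spread between cultures is unknown. The labels do not say whether the tagged line was 1 clone, and RNA or protein of the 3 genes was not analysed here.

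Albumin is the main protein of blood plasma and is made by hepatocytes. AFP is its relative in the embryo, made by yolk sac and fetal liver, silenced after birth and often made again by liver cancers, and afamin is a vitamin E-binding relative made by liver. The 3 genes arose by duplication, and the liver factors HNF1, C/EBP and FOXA are known to bind promoters and upstream enhancers of ALB and AFP. VPS72 (YL1) binds H2A.Z as a member of the chromatin remodelling complexes, those of SRCAP and TIP60. H2A.Z sits at promoters and enhancers, H3K27ac marks active promoters and enhancers, and H3K4me1 marks enhancers and the flanks of promoters.

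The promoters are shown because the widest H3K27ac regions of the locus lie at the starts of ALB and AFP. The sequences run from 250 bases before to 50 bases after each gene start on the plus strand, and come from RefSeq on GRCh38.p14, where 3 of 3 genes matched. They span chr4:73404037-73404336 for ALB, chr4:73435971-73436270 for AFP and chr4:73481495-73481794 for AFM in that build, which is not the build of the peaks. Capitals mark matches on either strand to GTTAAT, part of the HNF1 motif, to CCAAT and to TATAAA.
ALB: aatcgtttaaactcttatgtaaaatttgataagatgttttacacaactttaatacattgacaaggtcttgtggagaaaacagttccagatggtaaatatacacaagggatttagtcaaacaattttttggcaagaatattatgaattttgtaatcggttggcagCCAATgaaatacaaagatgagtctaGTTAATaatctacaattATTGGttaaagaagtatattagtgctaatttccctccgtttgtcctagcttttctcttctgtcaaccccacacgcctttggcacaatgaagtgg
AFP: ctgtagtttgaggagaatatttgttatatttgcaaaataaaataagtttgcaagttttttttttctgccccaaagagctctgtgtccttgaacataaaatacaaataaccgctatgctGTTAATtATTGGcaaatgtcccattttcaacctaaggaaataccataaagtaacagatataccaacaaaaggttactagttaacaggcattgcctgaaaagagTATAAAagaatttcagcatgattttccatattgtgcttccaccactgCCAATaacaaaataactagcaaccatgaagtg
AFM: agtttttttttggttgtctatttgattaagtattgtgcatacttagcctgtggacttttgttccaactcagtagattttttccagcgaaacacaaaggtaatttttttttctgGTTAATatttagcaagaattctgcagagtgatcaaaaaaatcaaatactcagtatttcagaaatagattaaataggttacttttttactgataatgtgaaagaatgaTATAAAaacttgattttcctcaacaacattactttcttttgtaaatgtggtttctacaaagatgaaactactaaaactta
GTTAAT occurred on the plus strand in each of them, with its first base at position -61 in ALB, -132 in AFP and -137 in AFM, against 6.88% of 35116 RefSeq promoters of the same length that hold it on either strand. CCAAT, present in 34.6% of promoters, occurred in ALB at -86 and, on the minus strand, from -44. AFP held it at 19 after the start and, on the minus strand, from -125, and AFM held no match. TATAAA, present in 11.5% of promoters, began at -29 in AFP and at -30 in AFM. TGTTTAC (a FOXA motif), CAAGGTCA (NR5A2) and TGACTCA (AP-1), held by 3.42%, 1.28% and 4.95% of promoters, did not occur in these letters, and no match overlapped another. GC content was 33.3% in ALB, 33.0% in AFP and 27.7% in AFM, against a median of 58.7%. Only 3.13%, 2.83% and 0.476% of promoters had as little. The motif shares are over all promoters and were not matched for GC content, so they are no measure of how unusual these matches are. A match is a description of the sequence and shows no binding.

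Deposited regions reached down to a p of 0.05, and those whose q, the p adjusted by the peak caller for multiple tests, was 0.05 or less are set apart in what follows. Reads at each peak summit were recovered from the deposited values. Depth came to 3.07 M (mega) reads for FLAG with overexpression and 4.38 M in the control, and to between 17.9 and 25.0 M in the 8 histone libraries. The height of a summit was taken as its reads divided by the genome average of the library, and its 95% intervals, like those of height ratios, are exact and cover counting error only. The summits of the locus held 1 to 46 reads. No region of either input list, of 814 and 810 regions, fell in the window.

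H3K27ac covered 21.6% of the 150 kb with overexpression and 22.2% in the control, which is 32.5 and 33.3 kb. The median of 19025 windows of the same length laid end to end over chromosomes 1 to 22 and X was 0.89% with overexpression and 0.66% in the control. Windows without a summit in any of the 10 lists were left out of these medians. Only 2 windows with overexpression and 3 in the control were covered more, also when the windows were shifted to start midway. H3K4me1 covered 27% with overexpression and 8.38% in the control, with 103 and 739 windows covered more and medians of 1.62% and 0.81%. The other 3 antibodies each covered less than either of these marks in the same cells. H2A.Zac covered 1.56% with overexpression and 4.67% in the control, against medians of 0.91% and 1.15%. H2A.Zac covered more of 6088 windows with overexpression and of 2096 windows in the control. H2A.Z covered 0.50% and 2.50%, against medians of 0.53% and 1.83%, with 9819 and 7606 windows covered more. FLAG covered 2.66% with overexpression and 0.41% in the control, both below its medians of 6.99% and 1.54%.

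**Figure D1:**
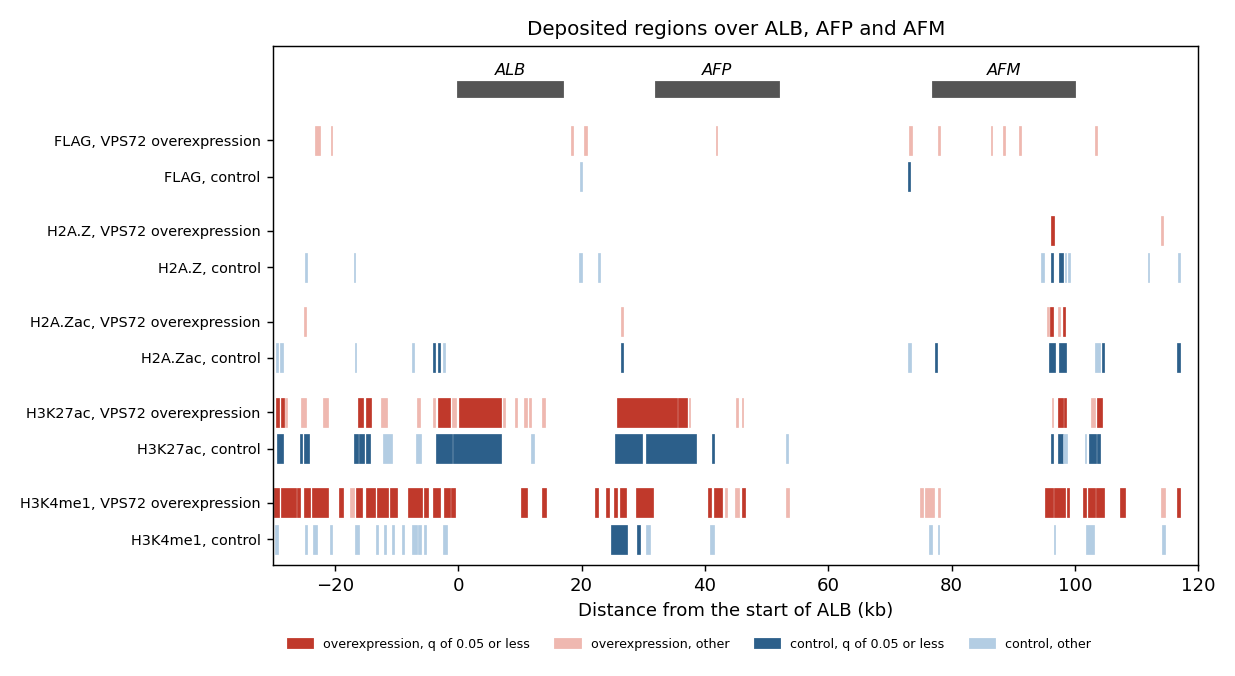
Map of the deposited regions over the locus; the x axis is the distance from the start of ALB in kb, and each antibody has a row for VPS72 overexpression (red) above a row for the control (blue), with dark bars where q was 0.05 or less and light bars elsewhere. H3K27ac forms broad blocks at the starts of ALB and AFP in both conditions, and ALB and AFP carry no H2A.Z or H2A.Zac. With overexpression the H2A.Z and H2A.Zac regions drawn dark all lie in the far end of AFM, while the control has dark H2A.Zac regions also upstream of ALB, before AFP, at the start of AFM and past it.

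Relative to its H3K27ac, the locus held less H2A.Zac, and also less H2A.Z, H3K4me1 and FLAG, than the few windows with as much H3K27ac. Its length covered by H2A.Zac was 7.21% of its length covered by H3K27ac with overexpression and 21.0% in the control. In the 2 windows with more H3K27ac with overexpression the median of this ratio was 18.0%, and in the 3 windows of the control it was 46.4%, and none of these windows had as little H2A.Zac as the locus. With overexpression the locus stood at 2.31% against 6.64% for H2A.Z, 125% against 148% for H3K4me1 and 12.3% against 26.1% for FLAG. In the control it stood at 11.2% against 17.1%, 37.7% against 93.3% and 1.84% against 45.4%. None of these windows had as little of any of them, so the pattern was not particular to H2A.Zac. H3K27ac and H3K4me1 regions shared 15.3 kb with overexpression and 6.39 kb in the control. That was 47.2% of the H3K27ac length with overexpression and 19.2% in the control, but 37.8% of the H3K4me1 length with overexpression and 50.9% in the control, where H3K4me1 covered less.

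**Figure D2:**
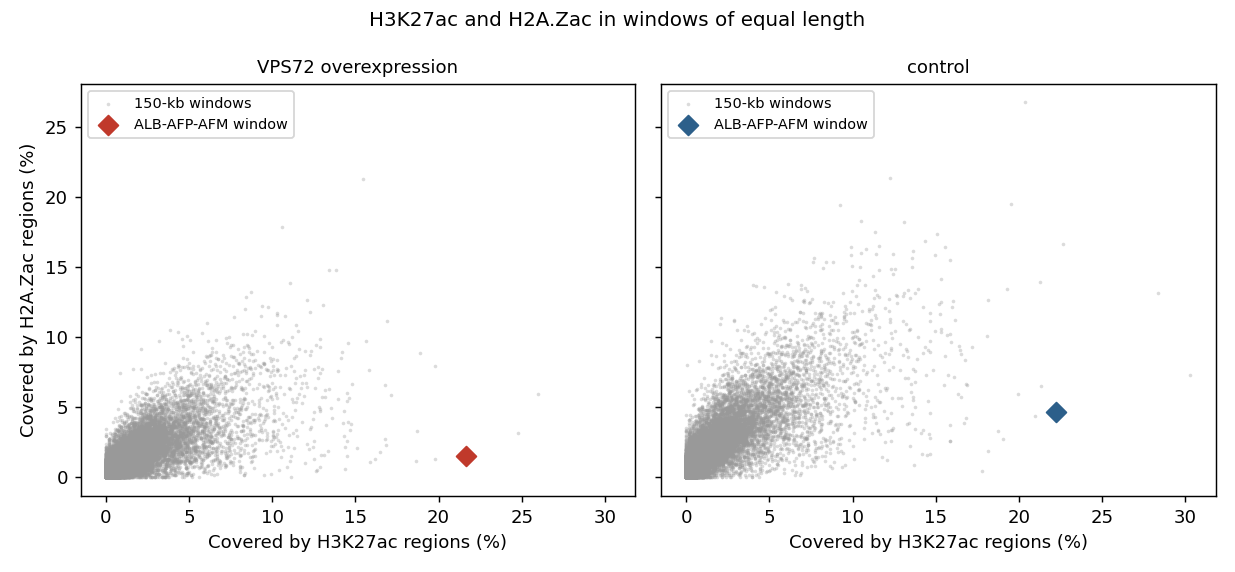
Percent of each 150-kb window covered by H2A.Zac regions (y axis) against percent covered by H3K27ac regions (x axis). VPS72 overexpression is on the left and the control on the right. Each grey point is 1 window of the genome that held a summit of any list, and the diamond is the locus. The diamond lies near the far right of both panels, at 21.6% H3K27ac and 1.56% H2A.Zac with overexpression and 22.2% and 4.67% in the control. In both panels it lies above the median H2A.Zac of all windows but below every point further right.

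ALB carried 1 broad H3K27ac region at its start and over its first part in both conditions. With overexpression it spanned chr4:74270067-74276906 (hg19, 6840 bp) and in the control chr4:74269175-74276917 (7743 bp), the 23rd widest of 77213 H3K27ac regions with overexpression and the 17th widest of 65070 in the control. With overexpression the region began 0.067 kb past the ALB start as given, which is within the 1 kb rounding of the gene bounds. In the control the region began before that start. The right edges of the overexpression and control regions lay 6.91 and 6.92 kb past the ALB start. The summit with overexpression lay 1.68 kb past the start and held 41 reads, which is 19.1 times the genome average (13.7 to 25.9). The summit in the control lay 1.07 kb past the start and held 37 reads, 19.8 times the average (13.9 to 27.3). The ratio of heights, overexpression over control, was 0.97 (0.60 to 1.55), so no difference was detectable at this depth. The authors' deposited folds over local background were 12.5 with overexpression and 12.7 in the control.

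No region of FLAG, H2A.Z, H2A.Zac or H3K4me1 overlapped the broad ALB region in either condition. With overexpression a separate H3K27ac region just before the start, chr4:74268954-74269661 with 12 reads, was overlapped by H3K4me1 up to 74269506. The broad region of the control already began at 74269175, so with overexpression the absence of H3K4me1 depends on where the list cut the block. Among H3K27ac regions with at least the −log10 q of the broad ALB region, 14 of 2307 with overexpression (0.607%) and 16 of 4346 in the control (0.368%) had no region of the other 4 antibodies, the ALB region included in each count. Of the regions at least as wide, it was the only one of 23 with overexpression (4.35%) and the only one of 17 in the control (5.88%). Of the regions at least as strong, 2.6% with overexpression and 1.1% in the control lacked an H2A.Zac region, and 53.8% and 67.8% lacked H3K4me1. FLAG was lacking in 54.7% and 53.6% of them, and H2A.Z in 23.8% and 11.9%. Of the regions at least as wide the shares for H2A.Zac and H3K4me1 were closer: with overexpression 2 of 23 (8.7%) lacked H2A.Zac and 1 of 23 (4.35%) H3K4me1, and in the control 2 of 17 (11.8%) lacked each. FLAG was lacking in 60.9% of these with overexpression and 58.8% in the control, and H2A.Z in 56.5% and 35.3%. The stretch around the ALB start with no H2A.Zac region ran over 51.0 kb with overexpression and 28.5 kb in the control. The stretch with no H3K4me1 region ran over 10.7 kb with overexpression and 26.6 kb in the control.

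Further into ALB the marks were weak. H3K27ac had 5 more regions with overexpression, between 7.47 and 13.8 kb past the start with 7 to 9 reads each, and 1 more in the control, 12.1 kb past the start with 8 reads, and none of them had a q of 0.05 or less. H3K4me1 had 2 regions in the gene with overexpression, at chr4:74280178-74281089 with 9 reads and chr4:74283569-74284287 with 10 reads, both with a q of 0.05 or less, and none in the control. These summits stood 4.38 and 4.87 times above the genome average, among the lowest H3K4me1 summits of the locus in those cells. ALB as a whole was covered to 50.0% by H3K27ac with overexpression and 43.0% in the control, to 9.59% by H3K4me1 with overexpression and 0% in the control, and to 0% by H2A.Z and H2A.Zac in both.

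AFP lay under the other broad H3K27ac block, which began before the gene. With overexpression it was 1 region, chr4:74295748-74305467 (9720 bp), the 9th widest of its list, which ran from 6.25 kb before the AFP start to 3.47 kb after it. In the control the block was split into chr4:74295456-74299739 (4284 bp), which ended 2.26 kb before the start, and chr4:74300445-74308633 (8189 bp), the 13th widest of its list, which ended 6.63 kb after it. Past its end with overexpression a smaller region, chr4:74305663-74307173, held 16 reads, so the marked stretch was cut differently in the peak lists.

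At the AFP start itself the summits of the conditions lay 14 bp apart. The overexpression summit lay 0.63 kb past the start and held 42 reads, 19.6 times the genome average (14.1 to 26.5), and the control summit held 34 reads, 18.2 times the average (12.6 to 25.4). Their ratio was 1.08 (0.67 to 1.75), which includes no difference. The authors' deposited folds of the same summits were 11.3 with overexpression and 5.17 in the control, because the local background of the peak caller was 1.23 times the genome average with overexpression and 3.02 times in the control. The strongest H3K27ac summit of the locus in the control, with 46 reads and 24.6 times the average (18.0 to 32.8), lay 4.36 kb before the AFP start. No overexpression summit was reported within 1 kb of it, since there the position fell inside the single wide region.

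In the stretch 6 to 2 kb before AFP, H3K4me1 and H2A.Zac regions overlapped the H3K27ac block, and H2A.Z had none. H3K4me1 had its highest summits of the locus here: with overexpression chr4:74296193-74297191 held 25 reads, 12.2 times the average (7.87 to 18.0), and in the control chr4:74294762-74297320 held 15 reads, 8.37 times (4.68 to 13.8), a ratio of 1.45 (0.74 to 2.97). Nearer the gene, H3K4me1 summits 7 bp apart held 20 reads with overexpression and 15 in the control, at chr4:74299058-74299510, a ratio of 1.16 (0.57 to 2.44). H2A.Zac had 1 region in each condition here, with summits 14 bp apart: 10 reads with overexpression, at chr4:74296356-74296787, and 11 reads in the control, at chr4:74296344-74296645, a ratio of 0.79 (0.30 to 2.05). The q was 0.05 or less in the control and above it with overexpression. Within AFP itself there was no H2A.Z and no H2A.Zac region in either condition, and H3K4me1 covered 16.1% with overexpression and 3.01% in the control. The H3K4me1 region of AFP with the highest −log10 q was chr4:74310482-74310936 with overexpression and chr4:74310832-74311433 in the control, with 11 and 10 reads and a height ratio of 0.96 (0.37 to 2.52).

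AFM differed from both neighbours. No H3K27ac region lay within 2 kb of its start in either condition. H2A.Zac had 1 region there in the control, chr4:74347311-74347675, with 11 reads and 5.67 times the average (2.83 to 10.1), and none with overexpression. H3K4me1 had 2 pairs of summits there, whose ratios lay on either side of 1. The pair past the start, 61 bp apart, held 11 reads with overexpression and 12 in the control, at chr4:74347739-74347952, a ratio of 0.80 (0.32 to 1.98). The pair before the start, 139 bp apart, held 15 reads with overexpression and 10 in the control, a ratio of 1.31 (0.55 to 3.26). None of these H3K4me1 regions had a q of 0.05 or less, while the H2A.Zac region of the control did.

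The marks of AFM lay instead 95 to 99 kb past the ALB start, in the last part of the gene, where H2A.Z, H2A.Zac, H3K27ac and H3K4me1 met. H2A.Z, the variant VPS72 binds, had its only regions of the locus with a q of 0.05 or less here. At the H2A.Z summit they share, chr4:74366067-74366553 held 13 reads with overexpression, 7.92 times the average (4.22 to 13.5), and chr4:74366125-74366489 held 11 reads in the control, 7.87 times (3.93 to 14.1), a ratio of 1.01 (0.42 to 2.48). Another H2A.Z region of the control, chr4:74367474-74368014 with 10 reads, was not found with overexpression. H2A.Zac at the shared summit held 16 reads with overexpression, at chr4:74365995-74366520, and 18 in the control, at chr4:74365806-74366772, a ratio of 0.77 (0.37 to 1.60). At the next H2A.Zac summit 14 reads with overexpression stood against 20 in the control, a ratio of 0.61 (0.28 to 1.27).

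In the last part of AFM the 3 pairs of H3K27ac summits had height ratios below 1, none beyond counting error. The highest H3K27ac summit held 13 reads with overexpression, at chr4:74367278-74368012, and 20 in the control, at chr4:74367295-74368001, a ratio of 0.57 (0.26 to 1.20). The overexpression region with the highest −log10 q, chr4:74368170-74368557, held 11 reads, as did its control pair, a ratio of 0.87 (0.34 to 2.22), while the authors' deposited folds were 3.22 with overexpression and 1.79 in the control. The remaining pair held 9 reads with overexpression and 13 in the control, a ratio of 0.60 (0.23 to 1.53). H3K4me1 had chr4:74366694-74368447 with 21 reads with overexpression, 10.2 times the average (6.33 to 15.6), while the only control region there, chr4:74366586-74366818, held 8 reads, 4.46 times (1.93 to 8.79). Those H3K4me1 summits lay at different positions, more than 1 kb apart. No FLAG region lay in this stretch in either condition. Past AFM, H3K27ac summits at chr4:74373600-74374364 with 19 reads with overexpression and chr4:74373515-74374006 with 21 in the control gave a ratio of 0.79 (0.40 to 1.54). H3K4me1 there held 21 reads with overexpression, at chr4:74372122-74373234, and 13 in the control, at chr4:74371848-74373177, a ratio of 1.41 (0.67 to 3.06).

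**Figure D3:**
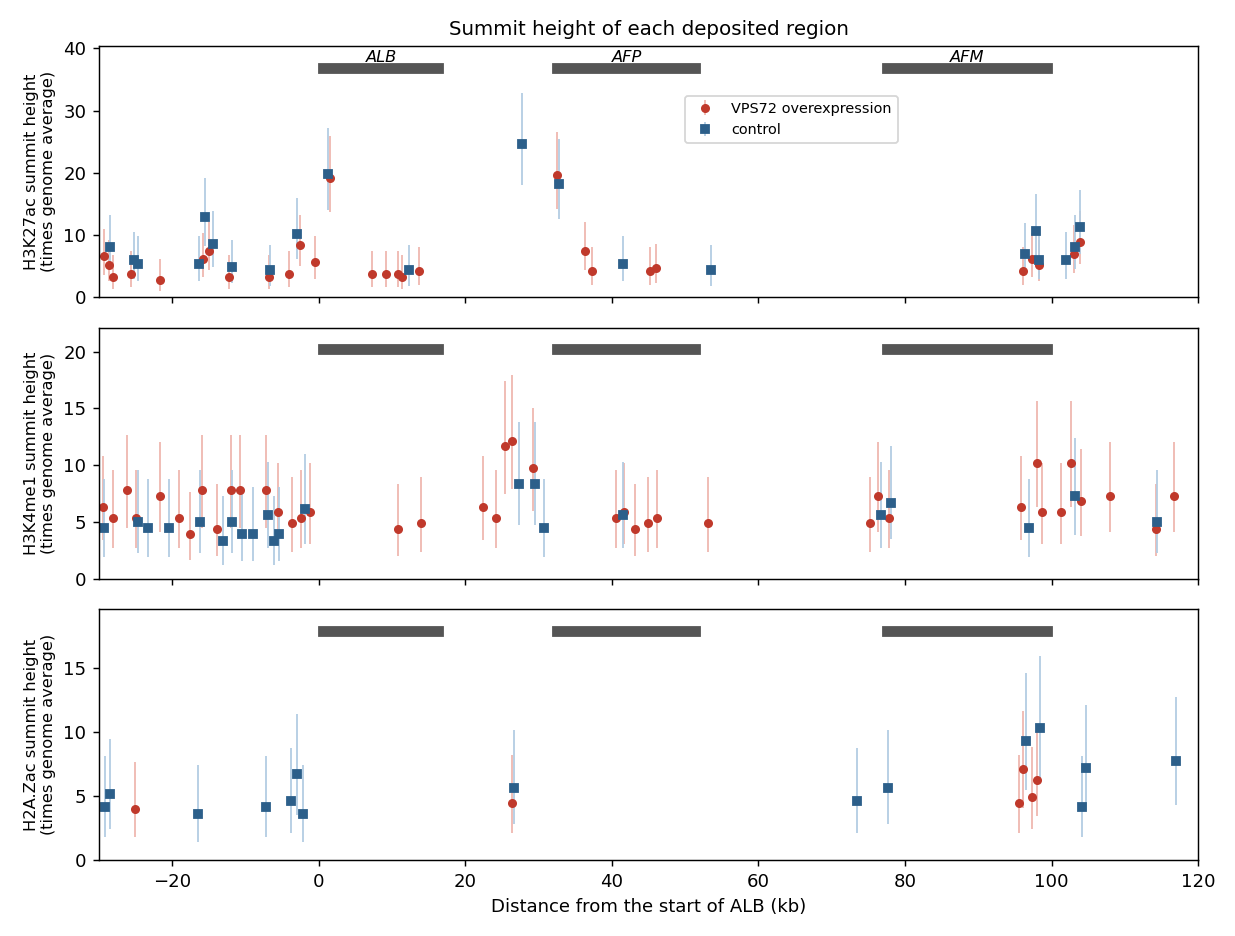
Summit height of each deposited region of H3K27ac, H3K4me1 and H2A.Zac as reads over the genome average (y axis) against distance from the start of ALB in kb (x axis), with red circles for VPS72 overexpression, blue squares for the control, exact 95% Poisson intervals as bars and the 3 genes as grey boxes. The H3K27ac summits at the starts of ALB and AFP stand at 18.2 to 19.8 in both conditions, and the intervals of nearly all neighbouring red and blue points overlap.

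The 30 kb upstream of ALB held the most regions, 62 of the 159, and differed most between the conditions in H3K4me1. H3K4me1 covered 64.8% of it with overexpression and 18.9% in the control. With overexpression 15 of its 16 regions had a q of 0.05 or less, and in the control 0 of 13 did. That q stood for a different p in each list, so these counts do not compare signal alone. A control region upstream of ALB with a −log10 p of 4.33 missed the limit, while an overexpression region in ALB with 3.85 passed it. At the 9 pairs of summits within 1 kb of each other upstream of ALB, the overexpression summits held 11 to 16 reads and the control summits 6 to 11. The height ratios ran from 0.87 to 2.33, and every interval included 1.

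H3K27ac covered 30.1% of the upstream stretch with overexpression and 32.5% in the control, and 15.1% and 25.1% when only regions whose q was 0.05 or less were counted. One of its summits, 15.6 kb before the ALB start, was named after its value was seen. There chr4:74253763-74254516 held 13 reads with overexpression, 6.06 times the average (3.23 to 10.4). In the control chr4:74253944-74254764 held 24 reads, 12.8 times (8.22 to 19.1). The height ratio of 0.47 (0.22 to 0.97) was the only one of 16 H3K27ac pairs of the locus whose interval left out 1. That interval still held the median ratio of those pairs, 0.78, and the median of 0.75 over control H3K27ac regions of the whole list. The neighbouring summit 14.9 kb before the start held 16 reads in both conditions, a ratio of 0.87 (0.41 to 1.86). Next to the gene, chr4:74266768-74268690 held 18 reads with overexpression and chr4:74266413-74268967 held 19 in the control, a ratio of 0.83 (0.41 to 1.66). Around it H2A.Zac had 2 control regions that passed a q of 0.05, with summits 3.93 and 3.09 kb before ALB and 9 and 13 reads. The one with 13 reads lay wholly inside the control H3K27ac region. With overexpression H2A.Zac had no region there, and its weakest summit reported in the window in those cells stood at 4.03 times the average.

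**Figure D4:**
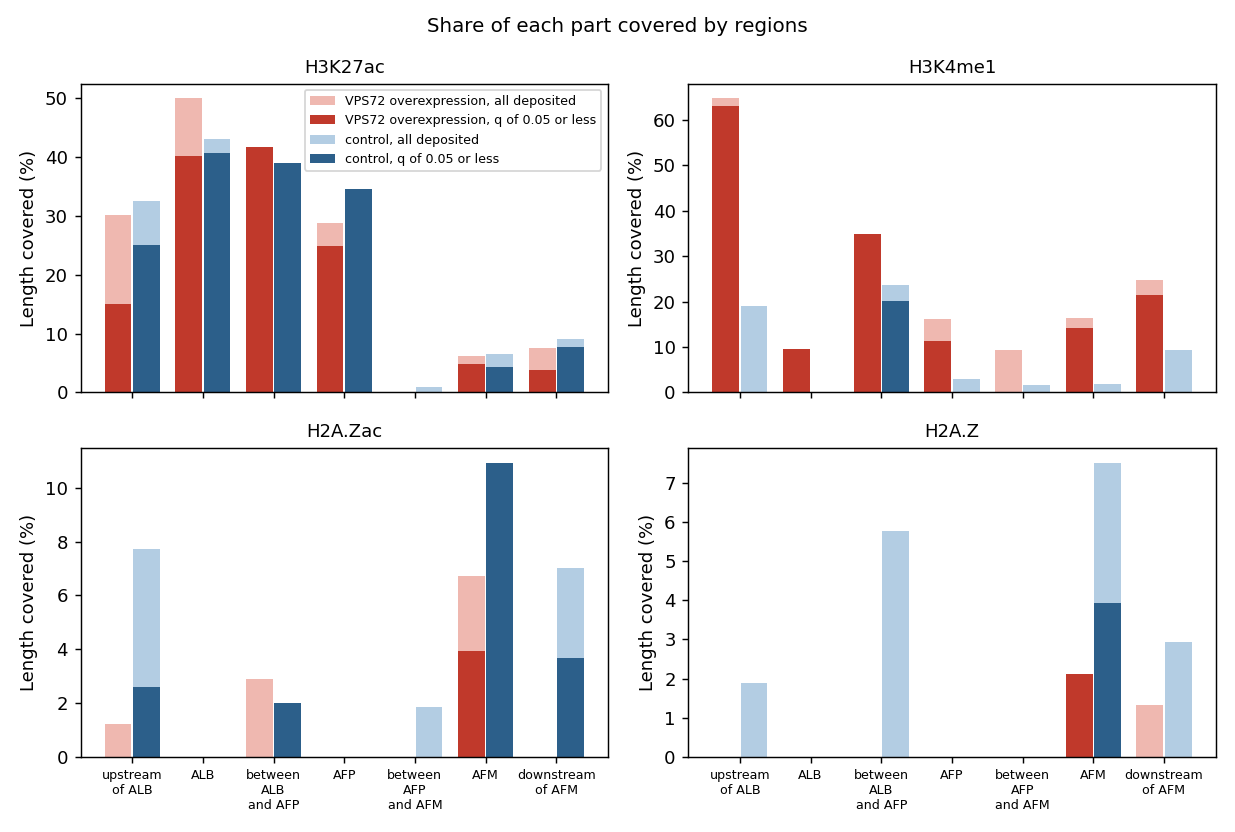
Percent of the length of each gene and each stretch between genes (x axis) that is covered by regions of H3K27ac, H3K4me1, H2A.Zac and H2A.Z (y axis), with VPS72 overexpression in red left of the control in blue; dark bars hold regions whose q was 0.05 or less and the lighter tops all deposited regions. H3K27ac covers 50.0% of ALB with overexpression and 43.0% in the control, H3K4me1 is higher with overexpression in every part, and ALB and AFP carry no H2A.Z or H2A.Zac.

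The 25 kb between AFP and AFM held the fewest regions, 8, and FLAG had its strongest region of the locus in both conditions there. In the control chr4:74342999-74343318 held 7 FLAG reads, 15.3 times the average (6.17 to 31.6), had a q of 0.05 or less, and overlapped a control H2A.Zac region, chr4:74342956-74343417, with 9 reads. With overexpression chr4:74343061-74343537 held 4 FLAG reads, 12.1 times (3.31 to 31.1), and its q was above 0.05. The summits lay 94 bp apart and their ratio was 0.79 (0.17 to 3.11). The local background stood at 2.05 times the genome average with overexpression and 2.56 times in the control. Just past the AFP end, H3K4me1 with overexpression, at chr4:74323186-74323688 with 10 reads, and H3K27ac in the control, at chr4:74323207-74323443 with 8 reads, overlapped, and neither had a q of 0.05 or less.

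The other FLAG regions were weaker. Between ALB and AFP, chr4:74290357-74290858 held 2 reads with overexpression, and chr4:74289699-74289990 held 4 reads in the control and overlapped a control H2A.Z region, chr4:74289544-74290000, with 7 reads. Those 2 FLAG regions did not overlap each other. The remaining 9 FLAG regions with overexpression held 1 read each. No FLAG region lay on ALB or within 2 kb of the start of ALB or AFP in either condition, which at a genome average of 0.329 reads per position with overexpression and 0.456 in the control says little about weak binding.

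Counts of regions whose q was 0.05 or less differed between the conditions in the same direction as in the whole lists. There the ratio of these counts, overexpression over control, was 0.68 for FLAG, 0.54 for H2A.Z, 0.71 for H2A.Zac and 0.87 for H3K27ac. The percentages that follow are shares of each whole list, which for H2A.Z ran the other way from the counts. FLAG had 0 of 11 with overexpression, where 8.51% of the whole list passed, and 1 of 2 in the control, where 37.5% did. H2A.Z had 1 of 2 with overexpression (whole list 24.6%) and 2 of 11 in the control (14.5%). H2A.Zac had 2 of 6 with overexpression (38.1%) and 8 of 15 in the control (49.2%). H3K27ac had 11 of 28 with overexpression (31.2%) and 15 of 21 in the control (42.3%). H3K4me1 had 33 of 41 with overexpression (55.2%) and 2 of 22 in the control (16.2%). Over the whole lists the number of H3K4me1 regions with such a q was 4.25 times as high with overexpression as in the control, and at the locus 16.5 times. Such a q stood for a different p in each of these lists. The peak names of the control H3K4me1 list spell the mark H3k3me1, while its title and antibody label say H3K4me1, so every H3K4me1 comparison rests on those labels. The locus gave 31 H3K4me1 regions with overexpression and 12 in the control when a summit of at least 5 times the genome average was asked for instead, a limit chosen after the data were seen.

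Regions of one condition were looked for in the other. Of the control regions that passed a q of 0.05, 9 of 15 for H3K27ac overlapped such a region with overexpression, against 71.9% of the whole list. For H2A.Zac it was 2 of 8, against 59.5%, for H2A.Z 1 of 2, against 37.3%, for FLAG 0 of 1, against 40.2%, and for H3K4me1 2 of 2, against 81.2%. In the other direction, 10 of 11 overexpression regions of H3K27ac overlapped such a control region, against 85.1%, and 3 of 33 of H3K4me1, against 17.9%. When every deposited control region was allowed, 15 of 33 for H3K4me1 did, against 55.2%. Shares over so few regions of 1 locus are descriptions.

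Heights set the same comparison on reads. At summits within 1 kb of each other, where a summit can enter more than 1 pair, H3K27ac was higher with overexpression in 1 of 16 pairs, with a median ratio of 0.78 and a range of 0.47 to 1.08. H2A.Zac was higher in 0 of 5, with a median of 0.61. H3K4me1 was higher in 12 of 16, with a median of 1.40 and a range of 0.80 to 2.33. Over all control regions that passed this q and were found in both conditions, with the highest overexpression summit in each, the medians were 0.75 for H3K27ac (12.7% higher with overexpression), 0.65 for H2A.Zac (4.48%) and 1.09 for H3K4me1 (62.3%). Over overexpression regions that passed it the medians were 0.76 for H3K27ac (14.3%), 0.65 for H2A.Zac (6.0%) and 1.20 for H3K4me1 (76.4%). These medians are matched by overlap and not by summit distance, so they serve only as a scale. The H3K27ac summits at the starts of ALB and AFP, at 0.97 and 1.08, were the 2 highest ratios of the 16 and also the pairs with the most reads. The control summit before AFP, with 46 reads, entered no pair. Matched by overlap, the 42 reads of the overexpression region over it gave a ratio of 0.80 (0.51 to 1.24).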

How the data were processed

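ChIP-seq peak lists of 10 libraries and 2 inputs were used, grouped by the sample titles. The genotype labels of the overexpression libraries carry a running series of VPS names and were read as VPS72, and the control H3K4me1 list, whose peak names spell H3k3me1, was taken by its title and antibody label. Per the submitters' processing notes, FastQC, Trimmomatic, BWA and MACS2 were used, without versions, and the notes name hg19 and hg38; the lists hold the contig hs37d5, and coordinates are given as hg19, 1-based. The authors' fold (a ratio of the summit to the local background, with 1 added to both), their −log10 p and −log10 q and their summit position were used as deposited, and their deposited score was not. Peaks were called per library. The deposited summit lists repeated the same summits in 12 of 12 libraries.

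Reads at each summit were recovered from fold and −log10 p under the MACS2 model, allowing a difference of 0.002 in −log10 p. At least 99.999% of the peaks of a list gave whole reads; 100% of 12000 simulated peaks were recovered. Depth assumes a genome of 2.7 Gb. A q of 0.05 was the main limit, and overlap was at least 1 bp. Each region was assigned to a gene or stretch by its summit. The 1 library per group allowed no test. Height ratios have Clopper-Pearson intervals. The genes, motifs and limits were chosen with earlier results of these data known. All 3 genes are reported; regions with coordinates are those with the highest −log10 q per stretch and histone list that lie in a gene, at its start or on the strongest region of another list, the 2 highest for FLAG, and others picked after their values were seen. Calculations used scipy 1.17.1, pandas 2.3.3 and numpy 2.4.6 in Python 3.11.15, and plots matplotlib 3.10.9.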

Additional observations from a re-analysis of the deposited data

How the results depend on the processing

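No paired analysis was possible because each group had 1 library and the labels carry no replicate numbers. Of 42 values set beside the main ones for region counts, strongest heights and regions found in both conditions, 32 stayed on the same side and close to the main value (counts within 1.5 times of it, heights within its 95% interval), 7 moved further and 3 reversed. Reversed were the ratio of FLAG region counts, overexpression over control, which was 5.5 over every deposited region and 0 at a q of 0.05 or less, that of H3K27ac, 1.33 over every deposited region and 0.73 at that q, and the ratio of the strongest H3K27ac heights, 1.22 by the deposited fold and 0.78 by reads. Over every deposited region the count ratio was 0.18 for H2A.Z (0.50 at that q), 0.40 for H2A.Zac (0.25) and 1.86 for H3K4me1 (16.5), and 1 of 1 control FLAG regions was found with overexpression, where 0 was found at that q. At a q of 1e-05 the H2A.Zac ratio was 0, with 1 control region left, and the limit left no control region of FLAG, H2A.Z or H3K4me1. With a summit of at least 5 times the genome average, added after the data were seen, the ratio was 1.0 for FLAG and 2.58 for H3K4me1. Fewer or more regions entered each count by construction; the strongest H3K27ac regions are the one on ALB with overexpression and the one before AFP in the control, and the deposited fold divides by a local background that differs between them; the cause of the rest was not tested. Counts at gene starts moved in 5 of 30 alternatives. Depth limits the heights: a ratio from 10 reads against 11 had an interval from 0.30 to 2.05, and FLAG rested on at most 7 reads.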
